A study of Mus musculus with 5 samples.

Results

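Bone morphogenetic proteins (BMPs) are secreted signals, and 10 genes of the pathway were followed through 5 Tag-seq libraries of the mouse heart: 6 ligands (*Bmp2*, *Bmp4*, *Bmp5*, *Bmp6*, *Bmp7* and *Bmp10*), 3 receptors (*Bmpr1a*, *Bmpr2* and *Acvr1*) and the extracellular modulator *Bmper*. The genes were chosen by name, and they are 10 of the 13489 genes found in at least 1 library. All 10 were found in the atrio-ventricular canal (AVC), the outflow tract (OFT) and the *Twist1* null AVC, and 8 in each chamber library.

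The libraries were made from hearts at E10.5, Theiler stage 17. The AVC, OFT, atria and ventricles came from wild-type C57BL/6 embryos, and the null AVC came from *Twist1* knockout embryos on the ICR strain. Tissue of at least 3 litters was pooled for each library, and there is 1 library per group. No difference therefore has a replicate check, and every test below compares libraries, not conditions. Genotype and strain changed together between both AVC libraries and cannot be told apart.

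BMP ligands bind pairs of type I and type II receptor kinases, which phosphorylate SMAD proteins that enter the nucleus and switch on genes such as the *Id* and *Msx* factors. In the embryonic heart, BMPs made by the myocardium of the AVC and OFT are known to act on the neighbouring endocardium, where they promote matrix deposition and the transition to mesenchyme that fills the endocardial cushions. Extracellular binding proteins such as *Bmper* change how much ligand reaches the receptors.

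The deposited tags summed to between 4223810 in ventricles and 12977237 in null AVC, and a tag type needed 6 tags to be listed. A level is given in tags per 1000000 (TPM) of a library's listed tags, with its exact Poisson 95% interval. Intervals cover counting error only, and PCR copies of a molecule were counted as separate tags. A gene is called where the two-sided exact test of edgeR, with the dispersion fixed at 0.12, gave an unadjusted p under 0.05. *Twist1* was at 918 TPM in AVC, 299 in OFT, 63.4 in atria, 55.9 in ventricles and 4.55 in null AVC, in the direction of the labels. The 8 cushion mesenchyme markers summed to 2756 TPM in AVC and 3448 in OFT, against 197 in atria, 204 in ventricles and 756 in null AVC, with *Prrx1* at 0 in both chambers. The 4 ventricular muscle markers summed to 7284 TPM in ventricles against 331 in atria, whereas the 4 atrial muscle markers were lower in atria, at 231 TPM, than in AVC, at 412. Globin genes took 21.5% of the tags in the atria and 4.67% in ventricles, against 0.242% in AVC, 0.307% in OFT and 2.73% in null AVC. In pooled tissue, fewer cells of a type and less RNA per cell cannot be told apart.

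Tag-seq reads the 17 bases that follow a CATG, the site cut by NlaIII, so each gene is known through a few short tags rather than along its length. The genes carried 64 tag types that matched no other gene with a RefSeq-linked transcript, of which 53 lay in 3′UTRs, 8 in coding sequence and 3 in 5′UTRs, and 36 reached 20 tags in a library. Among the 64, a *Bmp7* tag type listed in the null alone, with 6 tags, also matched a gene without such a link. The tags that decide the results are printed from 5′ to 3′ on the strand of the transcript, with the site in lower case and the tag in capitals. Sites are numbered from the 3′ end of the transcript.
*Bmp2*, site 1: catgGAAGGTTGCTGAGCAAA
*Bmp2*, site 2: catgAAGTATAATGGTCAGAG
*Bmp4*, site 1: catgTTGTACCTGGATGAGTA
*Bmp4*, site 8: catgGACTGTTATTATATGCC
*Bmp5*, site 1: catgGAGCGCCATTCCCAACT
*Bmp5*, site 6: catgCTGCCTCTTGCTTCTGA
*Bmp6*, site 1: catgTACCGGGAAGCCAATTT
*Bmp7*, site 1: catgTCTGTGTCCCTGGAAAC
*Bmp7*, site 25: catgAATGAAAATGGTTAGGA
*Bmp10*, site 1: catgGCTTTATGTATTTTTGT
*Bmpr1a*, site 4: catgTGAAAAGAAAGGTGGTG
*Bmpr1a*, site 5: catgTTATGTTAACCCTTCCA
*Bmpr1a*, site 15: catgCATTTTAAAACTTCACT
*Bmpr1a*, site 19: catgTCATTCTTTATATATGG
*Bmpr2*, site 8: catgCTTTTTCTGAATGGACA
*Bmpr2*, site 13: catgGCATATGAATTTTGAGA
*Acvr1*, site 1: catgCAACACCACCCGATATA
*Acvr1*, site 2: catgTTCCAGGGGGAGACACC
*Bmper*, site 1: catgGTGTATAAAATGAAAGC

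Sites of the same gene are shown where their tags differed in direction between libraries or made up a large part of the gene's tags. Positions are from GRCm38, by a match of each tag to GENCODE M21 transcripts.

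**Figure D1:**
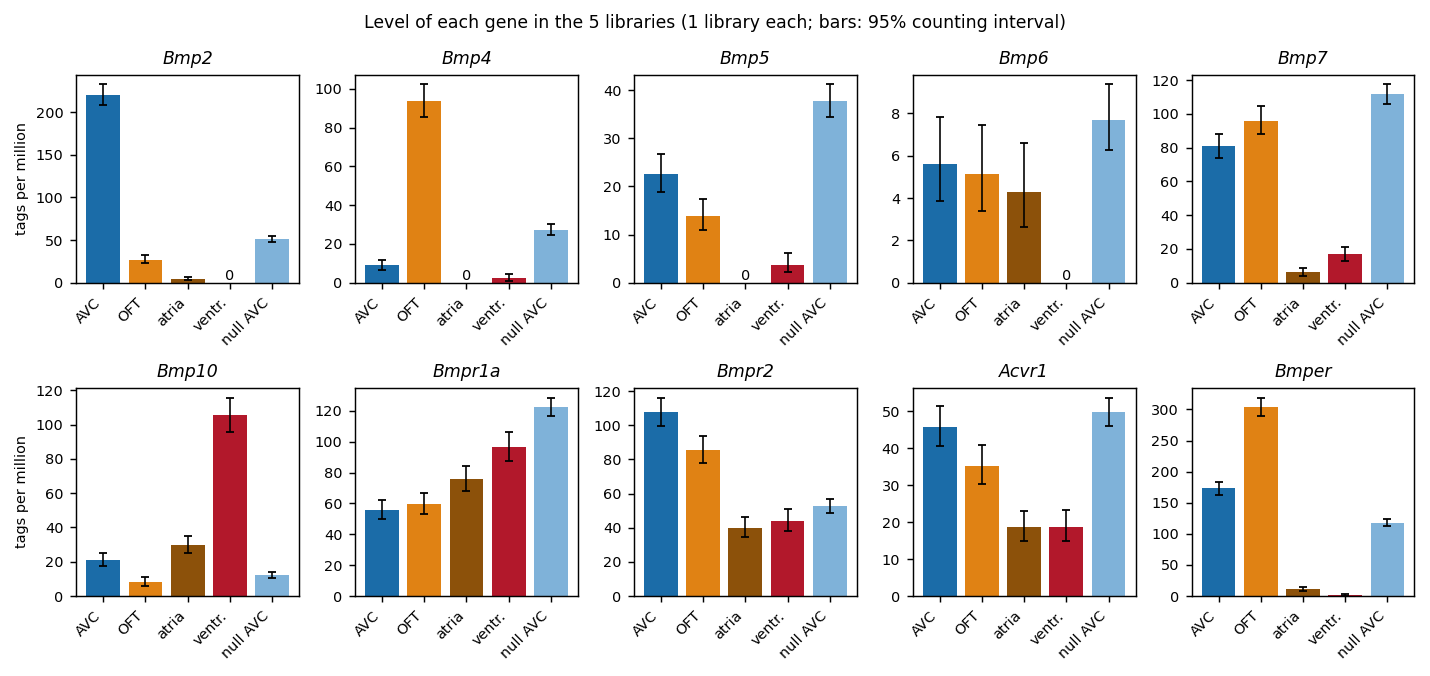
Level of each of the 10 genes in TPM (y axes, from 0, own scale in each panel) in the AVC, OFT, atria, ventricles and *Twist1* null AVC libraries (x axes); bars show 1 library each, error bars its 95% counting interval, and a 0 a gene with no listed tag. *Bmp2* peaked in the AVC at 220.4, *Bmp4* and *Bmper* in the OFT at 93.6 and 304, and *Bmp10* in the ventricles at 105.4.

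*Bmp2*, the myocardial ligand best known for driving cushion formation in the AVC, was at 220.4 TPM in AVC (208.7 to 232.5), 27.1 in OFT (22.9 to 32.0), 4.50 in atria (2.79 to 6.88), 51.2 in null AVC (47.3 to 55.2) and 0 in ventricles. The intervals of these libraries did not overlap, and the ventricles would have listed a tag type from 1.42 TPM. Its main tag, at chr2:133562166-133562186 in the 3′UTR of the last exon, held 1207 of 1339 *Bmp2* tags in the AVC, all 143 in OFT and all 21 in atria.

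*Bmp4*, a ligand of the outflow tract myocardium and of the second heart field that feeds it, was at 93.6 TPM in OFT (85.5 to 102), 27.3 in null AVC (24.5 to 30.3), 9.05 in AVC (6.82 to 11.8), 2.37 in ventricles (1.14 to 4.35) and 0 in atria. The OFT stood above every other library. The tag at site 1 lies in coding sequence, at chr14:46383920-46383940, and gave 375 of the 493 tags in the OFT, 336 of 354 in null AVC, 47 of 55 in AVC and all 10 in ventricles. A further 91 OFT tags came from site 8 in the 5′UTR, in exon 2 at chr14:46387169-46387189, where the AVC had 8 and the null 18.

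*Bmp5*, whose product is close to that of *Bmp7* in sequence and can partly stand in for it, was at 37.7 TPM in null AVC (34.4 to 41.2), 22.5 in AVC (18.9 to 26.7), 13.9 in OFT (10.9 to 17.4), 3.79 in ventricles (2.17 to 6.15) and 0 in atria. Each library was apart from its neighbours in this order. *Bmp6*, from the same subgroup of ligands, was low throughout, at 7.71 TPM in null AVC (6.27 to 9.37), 5.60 in AVC (3.88 to 7.82), 5.13 in OFT (3.38 to 7.46), 4.29 in atria (2.62 to 6.62) and 0 in ventricles. Neighbouring intervals overlapped from the null down to the atria.

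*Bmp7* was at 112 TPM in null AVC (106 to 117), 96.1 in OFT (87.9 to 104.8), 80.8 in AVC (73.8 to 88.3), 16.8 in ventricles (13.1 to 21.2) and 6.21 in atria (4.16 to 8.93). The intervals of OFT and AVC overlapped by a narrow margin, and both lay above the chambers. A tag shared by *Bmp5* and *Bmp7*, with 7 tags in the OFT, was not counted. Site 1, at chr2:172868483-172868503, gave 81.9% of *Bmp7* tags in the AVC (exact binomial interval 78.2 to 85.2) and 85.2% in OFT (81.8 to 88.2), but 51.7% in atria (32.5 to 70.6) and 60.6% in ventricles (48.3 to 72.0). Site 25, also in the 3′UTR and 1686 bases from the transcript end, held the rest of the tags in both chambers.

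*Bmp10*, a ligand of trabecular myocardium needed for the growth of the ventricular wall, ran the other way. Its level was 105.4 TPM in ventricles (95.8 to 116), 29.8 in atria (25.0 to 35.2), 21.1 in AVC (17.6 to 25.1), 12.2 in null AVC (10.4 to 14.2) and 8.35 in OFT (6.07 to 11.2). The ventricles stood above every other library, while the atria and AVC overlapped, as did the null and OFT. A single tag at chr6:87437539-87437559 gave all 445 *Bmp10* tags of the ventricles, all 139 of the atria and all 128 of the AVC.

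The type I receptor *Bmpr1a*, required for cushion mesenchyme and for the myocardium, was at 122 TPM in null AVC (116 to 128), 96.6 in ventricles (87.4 to 106), 75.9 in atria (68.2 to 84.2), 59.8 in OFT (53.4 to 66.8) and 56.0 in AVC (50.2 to 62.2). The OFT and AVC overlapped. *Acvr1*, a type I receptor preferred by *Bmp5*, *Bmp6* and *Bmp7* products, was at 49.7 TPM in null AVC (45.9 to 53.7), 45.8 in AVC (40.5 to 51.5), 35.3 in OFT (30.4 to 40.8), 18.7 in ventricles (14.8 to 23.3) and 18.6 in atria (14.9 to 23.0). Its intervals overlapped between the null and AVC, the AVC and OFT, and the ventricles and atria. The type II receptor *Bmpr2* was at 107 TPM in AVC (99.4 to 116), 85.6 in OFT (77.9 to 93.9), 52.6 in null AVC (48.7 to 56.7), 44.0 in ventricles (37.9 to 50.8) and 39.9 in atria (34.3 to 46.0). The null, ventricles and atria overlapped with their neighbours in this order. The tag at the 3′-most site of *Bmpr2* is shared with other genes and was not counted.

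*Bmper*, a secreted protein that binds BMPs and can raise or lower their activity, was at 304 TPM in OFT (289 to 319), 173 in AVC (163 to 184), 118 in null AVC (112 to 124), 10.9 in atria (8.14 to 14.4) and 1.66 in ventricles (0.666 to 3.41). No neighbouring intervals overlapped. Its tag at chr9:23484888-23484908, in the 3′UTR, gave between 97.4% and all of the *Bmper* tags in every library.

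Against the summed atria and ventricles, 5 of the 10 genes were called higher in the AVC (*Bmp2*, *Bmp4*, *Bmp5*, *Bmp7* and *Bmper*), where 43.4% of the 12506 genes tested were called higher. *Bmp10* was called lower, where 8.12% of genes were. A share of 5 in 10 is near that background. The median log2 ratio was 2.10 over the 10 genes and 1.23 over all genes. *Bmp2* was 93.3-fold higher in the AVC (60.8 to 151), with an exact p of 3.75e-12, and *Bmper* 26.6-fold higher (20.4 to 35.2), with an exact p of 3.16e-08. The other calls were *Bmp5* at 12.5-fold (7.45 to 22.5), *Bmp4* at 8.05-fold (4.06 to 17.7) and *Bmp7* at 7.18-fold (5.78 to 9.0). All 5 had an edgeR Benjamini-Hochberg adjusted p over all genes of at most 0.00457.

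*Bmp10* was 3.12-fold lower in the AVC than in the summed chambers (2.57 to 3.81), with an exact p of 0.0287 and an edgeR adjusted p of 0.0634. This rested on the ventricles. Against the atria alone its log2 ratio was -0.50 (exact p of 0.505), and against the ventricles alone it was -2.32 (exact p of 0.00243).

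The receptors were not called at a dispersion of 0.12. The log2 ratio of AVC to chambers was 1.36 for *Bmpr2* (exact p of 0.0647), 1.29 for *Acvr1* (exact p of 0.0832) and -0.61 for *Bmpr1a* (exact p of 0.398), and the first pair lay close to the median of all genes. With a dispersion of 0.05, *Bmpr2* and *Acvr1* were called higher (exact p of 0.00437 and 0.00853), and *Bmpr2* also with library totals before the limit on tags (exact p of 0.0458).

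The OFT was compared with the same chamber libraries, so both sets of ratios share their denominators. The same 5 genes were called higher, where 40.6% of the 12453 genes tested were, and *Bmp10* was called lower, where 8.88% were. *Bmp4* was 83.2-fold higher in the OFT than in the chambers (44.9 to 175), with an exact p of 3.96e-11, *Bmper* 46.5-fold (35.8 to 61.6) and *Bmp2* 11.5-fold (7.24 to 19.1). *Bmp7* was 8.54-fold higher (6.88 to 10.7) and *Bmp5* 7.70-fold (4.44 to 14.2). *Bmp10* was 7.86-fold lower (5.78 to 10.9), with an exact p of 2.01e-04. The log2 ratios of *Bmpr2*, *Acvr1* and *Bmpr1a* were 1.03, 0.92 and -0.52, with no call, though *Bmpr2* was called higher with a dispersion of 0.05 (exact p of 0.0303) and with totals before the limit on tags (exact p of 0.0417).

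The ratios depended on which chamber was used. Against the atria alone the log2 ratio of the AVC was 5.61 for *Bmp2*, 3.70 for *Bmp7* and 3.98 for *Bmper*, and that of the OFT 2.59, 3.94 and 4.79. Against the ventricles alone the AVC gave 1.92 for *Bmp4*, 2.57 for *Bmp5*, 2.26 for *Bmp7* and 6.69 for *Bmper*, and the OFT 5.29, 1.86, 2.51 and 7.49. These genes were called higher against either chamber. *Bmp6* was not called against the summed chambers, at log2 ratios of 1.31 in the AVC (exact p of 0.122) and 1.18 in the OFT (exact p of 0.173). With the ventricles alone, which listed no *Bmp6* tag, it was called higher in both, with exact p of 6.11e-05 and 1.81e-04.

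Scaling bears on these calls. Of the genes called, 84.2% were higher in the AVC and 82.1% in OFT, and TMM normalization, which moves the log2 ratios by -0.95 and -0.86, brought these shares to 59.4% and 59.7%. With TMM 25.7% and 26.2% of genes were called higher, and 17.5% and 17.7% lower. *Bmp2*, *Bmp4*, *Bmp5*, *Bmp7* and *Bmper* were called higher and *Bmp10* lower with TMM too, in both comparisons. *Bmpr1a* was then also called lower in the AVC, at a log2 ratio of -1.57 (exact p of 0.0342). The summed levels of cushion mesenchyme markers and of globins given above moved with these comparisons, and their part in the ratios was not tested.

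**Figure D2:**
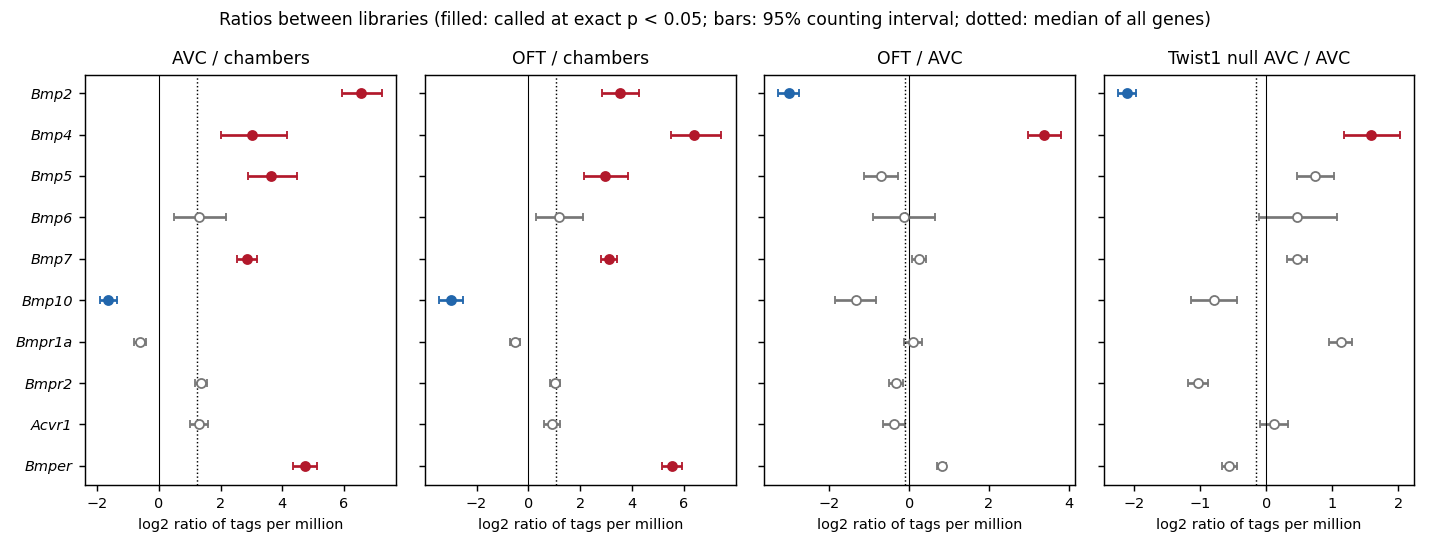
Log2 ratio of TPM for each gene (y axis) in 4 comparisons of libraries (panels, x axes with their own scales); points are the ratios, error bars 95% counting intervals, filled points calls at an exact p under 0.05 (red higher, blue lower), and the dotted line the median of all genes. Against the chambers, *Bmp2* has the highest ratio in the AVC panel and *Bmp4* in the OFT panel, and *Bmp2* lies furthest left in the null panel, at -2.11.

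The OFT was also compared with the AVC directly. *Bmp4* was called higher in the OFT, where 5.22% of the 12544 genes tested were, and *Bmp2* lower, where 7.36% were. *Bmp4* was 10.3-fold higher in the OFT (7.81 to 13.9), with an exact p of 3.05e-05 and an edgeR adjusted p of 0.00430. *Bmp2* was 8.12-fold lower (6.83 to 9.72), with an exact p of 1.15e-04 and an edgeR adjusted p of 0.0103. The other 8 genes were not called. *Bmp10* was at a log2 ratio of -1.33 (exact p of 0.0863), *Bmper* at 0.81 (exact p of 0.265) and *Bmp7* at 0.25 (exact p of 0.734), and the 3 receptors lay between -0.37 and 0.10. With TMM, where 6.39% of genes were called higher and 6.24% lower, the same pair was called. Markers of other cell types moved with this comparison. The 6 neural crest and second heart field markers summed to 83.5 TPM in OFT and 5.27 in AVC, with *Foxd3* and *Hoxa3* at 0 in both, the 4 atrial muscle markers to 46.9 and 412, and the 6 epicardial markers to 89.8 and 270. Their part in the ratios of *Bmp4* and *Bmp2* was not tested.

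Between the chambers, *Bmp10* was 3.54-fold higher in the ventricles than in the atria (2.92 to 4.31), with an exact p of 0.0156 and an edgeR adjusted p of 0.130. *Bmper* was 6.59-fold lower in the ventricles (2.98 to 17.2), with an exact p of 0.00316 and an edgeR adjusted p of 0.0502. Its ventricle level is 7 tags, just past the listing limit of 6, against 51 in atria. *Bmp4* and *Bmp5* were also called higher in the ventricles and *Bmp2* and *Bmp6* lower, which made 3 genes in each direction. Of the 10707 genes tested 11.1% were called higher and 9.04% lower. Those 4 calls set 10 to 21 tags against none. An unlisted tag type could hold up to 5 tags. With 5 tags at the tag type that the other chamber listed, the differences would be 2.21-fold for *Bmp4*, 3.54-fold for *Bmp5*, 3.80-fold for *Bmp2* and 3.62-fold for *Bmp6*. These values leave out counting error and the other unlisted tag types of each gene, so they are not lower limits. With 5 tags put in for the missing tag type, none of the 4 was called. With TMM 9.16% of genes were called higher and 10% lower, and 6 of the 10 were called.

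The null AVC was compared with the wild-type AVC to see which genes differ where *Twist1*, a transcription factor of cushion mesenchyme, is absent. *Bmp2* was called lower in the null, where 12.7% of the 12966 genes tested were, and *Bmp4* higher, where 11.9% were. *Bmp2* was 4.31-fold lower (3.92 to 4.73), with an exact p of 0.00500 and an edgeR adjusted p of 0.0537. *Bmp4* was 3.01-fold higher (2.26 to 4.08), with an exact p of 0.0374 and an edgeR adjusted p of 0.172. Neither passed the adjustment over all genes. With TMM, 14.9% of genes were called higher and 9.37% lower, and the share of calls that were higher went from 48.3% to 61.3%. *Bmp2* and *Bmp4* were called in the same directions.

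The other genes were not called in the null at a dispersion of 0.12. The log2 ratio to the wild type was 1.13 for *Bmpr1a* (exact p of 0.124), -1.03 for *Bmpr2* (exact p of 0.157), -0.79 for *Bmp10* (exact p of 0.293), 0.74 for *Bmp5* (exact p of 0.318) and -0.56 for *Bmper* (exact p of 0.441). *Bmp7* was at 0.47 and *Bmp6* at 0.46. *Acvr1*, at 0.12, had a ratio of 1.09 with a counting interval of 0.942 to 1.25. Cushion mesenchyme markers, at 2756 TPM in the wild-type AVC and 756 in null AVC, moved with this comparison. The 9 cardiomyocyte markers summed to 24366 TPM in the wild-type AVC and 21574 in null AVC. The 6 neural crest and second heart field markers summed to 5.27 and 11.3 TPM, with *Tfap2a*, *Foxd3* and *Hoxa3* at 0 in both. The part of these cell types in the ratios was not tested.

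Tags of the same gene gave different ratios of the null to the wild type. For *Bmp2*, site 1 was at 199 TPM in the wild type and 37.8 in null AVC, a 5.25-fold difference (4.72 to 5.84), while site 2, in the same exon at chr2:133561988-133562008, was at 10.4 TPM in the wild type and 12.2 in null AVC, a ratio of 1.17 (0.871 to 1.60). Site 2 thus made up 4.71% of the gene's tags in the wild type (3.63 to 5.98) and 23.8% in null AVC (20.6 to 27.2). Site 3, in coding sequence of the same exon, went the way of site 1. It had 54 tags in the wild type and 15 in null AVC, 8.89 and 1.16 TPM, a 7.69-fold difference (4.28 to 14.7).

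*Bmp5* had 100 tags at site 1 in the wild type and 137 in null AVC, which in TPM is 16.5 and 10.6. At site 6, which lies 1147 bases from the transcript end where site 1 lies 313, at chr9:75899164-75899184, it had 6 tags in the wild type and 245 in null AVC, a ratio of 19.1 (8.66 to 52.6). Site 6 held 50.1% of the null's *Bmp5* tags (45.6 to 54.6). With the 3′-most site only, the log2 ratio of *Bmp5* turned from 0.74 to -0.64 (exact p of 0.392).

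*Bmpr1a* has a long 3′UTR with many sites, and its tags were spread over 11 of them. Site 4, at chr14:34411602-34411622, was at 20.1 TPM in AVC, 23.0 in OFT, 8.57 in atria, 7.58 in ventricles and 26.1 in null AVC. Site 15, which lies 2681 bases from the transcript end where site 4 lies 889, at chr14:34413394-34413414, was at 20.1 TPM in AVC, 14.6 in OFT, 61.9 in atria, 85.9 in ventricles and 14.3 in null AVC. The chambers were thus low at site 4 and high at site 15. In the AVC each site gave 35.9% of the gene's tags (30.8 to 41.2), whereas in the atria site 15 gave 81.6% (77.2 to 85.5) and in the ventricles 89.0% (85.5 to 91.8).

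By site, *Bmpr1a* was 2.48-fold higher in the AVC than in the chambers at site 4 (1.84 to 3.37) and 3.65-fold lower at site 15 (3.01 to 4.47). The OFT gave 2.84-fold higher (2.10 to 3.85) and 5.02-fold lower (3.96 to 6.44). These are counting intervals on single tags, with no test for dispersion. Sites 5 and 19 were at 2.63 and 1.65 TPM in the wild-type AVC and at 20.9 and 27.97 in null AVC, ratios of 7.93 (4.79 to 14.1) and 17.0 (9.14 to 35.7), while site 15 was at a ratio of 0.714 (0.565 to 0.904).

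*Bmpr2* has 2 leading tags, both in the 3′UTR of its last exon. Site 8, at chr1:59877103-59877123, was at 68.0 TPM in AVC and 12.1 in null AVC, 5.62-fold lower (4.67 to 6.80). Site 13, at chr1:59875786-59875806, was at 31.1 and 15.5 TPM, 2.01-fold lower (1.64 to 2.46). The null also listed 57, 34 and 48 tags at sites 15, 19 and 23, where the wild-type AVC listed none, though its library is shallower and lists tag types from 0.988 TPM rather than 0.462. *Acvr1* was at a ratio of 0.906 at site 1 (0.779 to 1.06), and site 2 had 9 tags in the wild type and 130 in null AVC, a ratio of 6.76 (3.45 to 15.1).

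**Figure D3:**
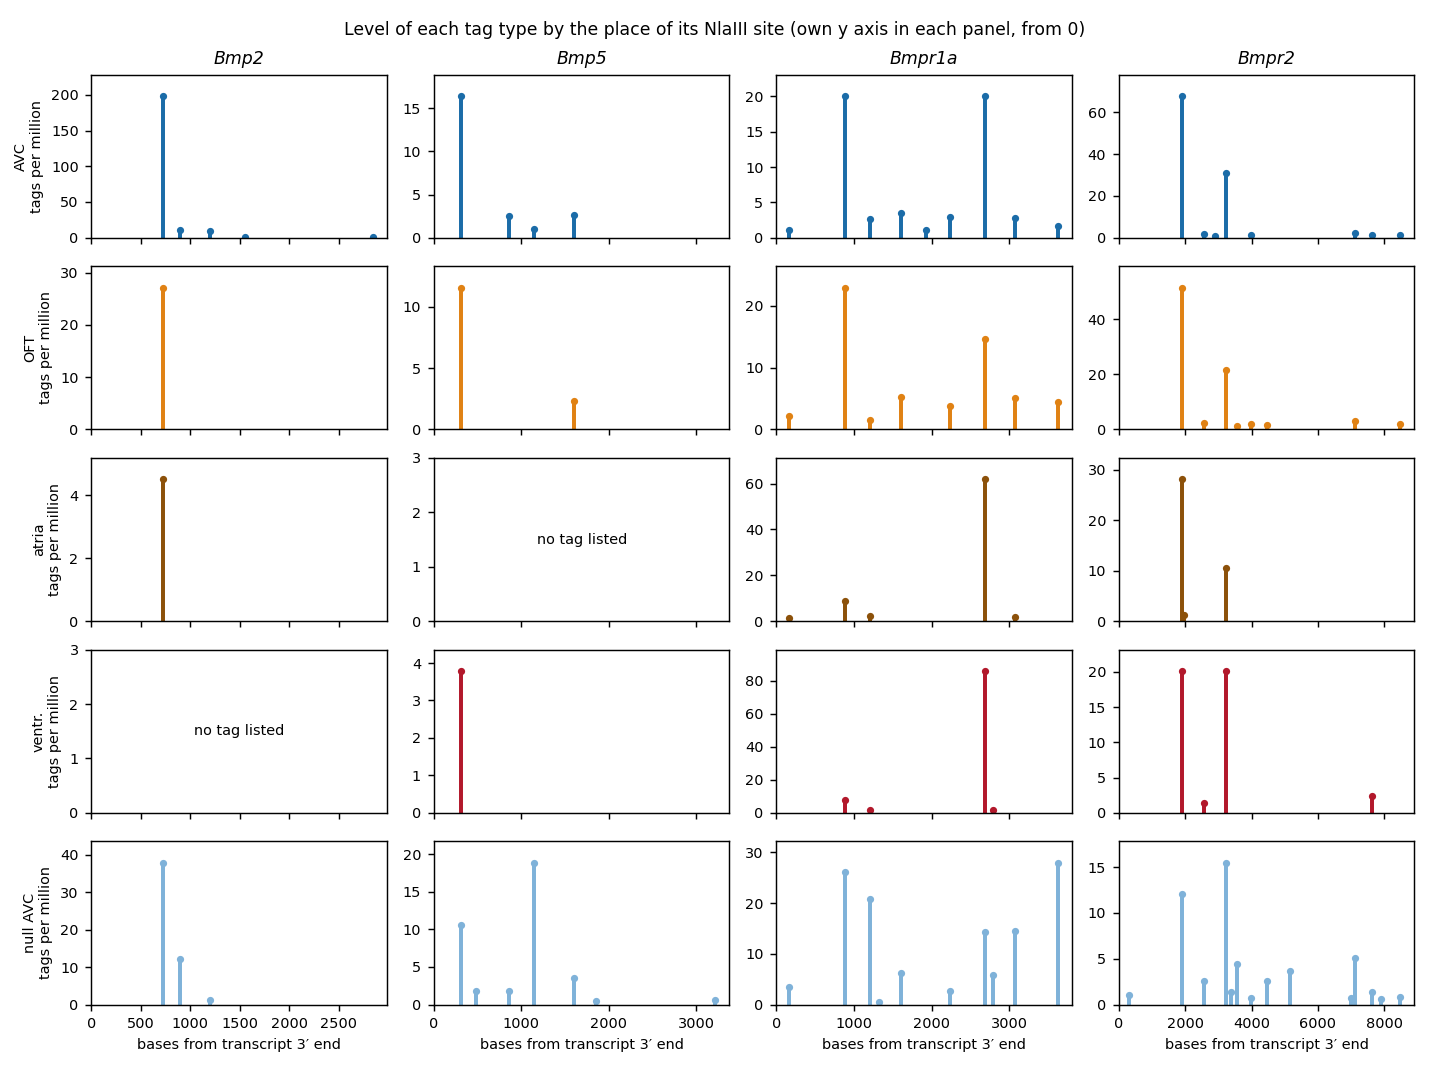
Level of each tag type in TPM (y axes, from 0, own scale in each panel) against the distance of its NlaIII site from the 3′ end of the transcript in bases (x axes) for *Bmp2*, *Bmp5*, *Bmpr1a* and *Bmpr2* (columns) in the 5 libraries (rows, 1 library each). In *Bmpr1a* the tallest line of both chambers is site 15, at 61.9 and 85.9 TPM, and the null spreads over more sites than the wild-type AVC in *Bmp5* and *Bmpr2*.

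Ratios of the null to the wild type also differed by the base that follows the site. The sites of *Bmp2*, *Bmp5* and *Bmpr2* set against each other above all begin with a base other than T. Of the 33 tag types of the 10 genes with at least 20 tags in either AVC library, 13 began with T. Of these, 9 had a counting interval above a ratio of 1 in null AVC, 3 had one that included 1, none lay below 1, and 1 was not listed in the wild type. Of the 20 that began with another base, 2 lay above 1, 8 below and 6 included 1, and 4 were not listed in the wild type. A tag type could enter through 1 library alone, and through the null at a lower TPM, since that library is deeper. Several of the 9 had fewer than 20 tags in the wild type, and *Bmp2* site 3, below 1, had 15 in null AVC. Most of the 9 were tags of *Bmpr1a*, so the counts do not stand for separate genes. Over all genes a split by first base appeared too. The median log2 ratio of null to wild type was 1.07 over 5527 tag types that began with T, counting those of at least 50 tags. It was -0.55 for A, -0.27 for C and -0.54 for G. Most *Bmp4* tags began with T, at 85.5% in the wild type and 94.9% in null AVC, and none of the *Bmp2* tags did. With an offset for the bases of the tags, *Bmp4* was no longer called, at a log2 ratio of 0.73 (p of 0.321 by edgeR's likelihood ratio test), and *Bmp2* was still called lower at -1.50 (p of 0.0387).

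In the comparison of the AVC with the chambers the first base moved the medians as well, with 0.52 for tags that began with T and 1.64 for those that began with C. None of the *Bmpr2* tags in the wild type began with T, and with the offset its log2 ratio of AVC to chambers went from 1.36 to -0.10. That of *Acvr1* went from 1.29 to -0.05. The calls of *Bmp2*, *Bmp4*, *Bmp5*, *Bmp7*, *Bmp10* and *Bmper* were kept with the offset in both comparisons with the chambers.

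The rest of the pathway was described by lists of genes. Of 8 SMAD transducers and inhibitors, 7 were called higher in the AVC than in the chambers and 1 lower, where 43.4% and 8.12% of all genes were. The median log2 ratio was 2.62 over the list, beside 1.23 over all genes. With TMM 4 were called higher and 1 lower, where 25.7% and 17.5% of all genes were, *Smad1*, *Smad9* and *Smurf1* being no longer called. *Smad6*, an inhibitory SMAD induced by BMP signalling, was at 57.9 TPM in AVC and 64.5 in OFT and at 0 in both chambers. *Smad5*, a transducer of BMP signals, was at 55.3 TPM in AVC, 44.0 in OFT, 6.86 in atria and 0 in ventricles. *Smurf2*, a ubiquitin ligase that limits the pathway, was called lower, at 3.62 TPM against 16.7 in atria and 8.29 in ventricles. In the OFT 6 of the 8 were called higher, where 40.6% of all genes were, and 5 with TMM, where 26.2% were, and *Smad7*, the other inhibitory SMAD, was 12.3-fold above the chambers.

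Of 14 genes known to respond to BMP signals, 11 were called higher in the AVC and 11 in OFT, where 43.4% and 40.6% of all genes were, and the median log2 ratios were 3.63 and 2.62, beside 1.23 and 1.07 over all genes. With TMM 9 and 7 were called higher, where 25.7% and 26.2% of all genes were. *Msx2*, a homeobox factor of the cushions, was at 78.8 TPM in AVC and 20.1 in OFT and at 0 in both chambers. *Has2*, which makes the hyaluronan of the cushion matrix, was at 215 TPM in AVC, 241 in OFT, 1.71 in atria and 9.23 in ventricles. Between OFT and AVC, 3 of these genes were called lower in the OFT, where 7.36% of all genes were, and none higher. With TMM 3 were called lower as well, where 6.24% of all genes were. *Tbx3*, a T-box factor of the AVC myocardium, was 6.16-fold lower, with an exact p of 7.76e-04, and *Msx2* 3.92-fold lower, with an exact p of 0.00959.

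In the null, where 12.7% of all genes were called lower, 1 of the 14 was, *Smad6*, at 18.0 TPM against 57.9 (3.21-fold, exact p of 0.0242, edgeR adjusted p of 0.132). None was called higher, and with TMM *Smad6* was not called either. The median log2 ratio was -0.41 over the list and -0.16 over all genes. The others lay on either side of the wild type, such as *Has2* at 171 TPM against 215, *Tbx3* at 121 against 90.0 and *Msx2* at 60.2 against 78.8. *Smad6* and *Smad7* stand in both lists.

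Among 23 extracellular modulators, 11 had a tag in the AVC or chambers, of which the AVC had 4 called above the chambers and 2 below, where 43.4% and 8.12% of all genes were. With TMM 2 were above and 3 below, where 25.7% and 17.5% of all genes were. The median log2 ratio was 1.40, beside 1.23 over all genes. *Htra1*, a secreted protease, was at 70.3 TPM in AVC, 31.9 in OFT, 10.6 in null AVC and 0 in both chambers. *Bmp1*, a procollagen protease that also cleaves BMP antagonists and is no BMP itself, was at 57.8, 63.2, 14.6, 5.14 and 2.13 TPM in AVC, OFT, null, atria and ventricles. *Fst*, the secreted antagonist follistatin, was at 15.9 TPM in atria and 0 in ventricles, so its call below the chambers rested on the atria. It was at 15.3 TPM in null AVC, 0.988 in AVC and 1.14 in OFT. The AVC and OFT levels are 6 tags each, the listing limit.

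In the null, 4 of 13 modulators with tags were called higher and 2 lower, where 11.9% and 12.7% of all genes were. The counts with TMM were equal, where 14.9% and 9.37% of all genes were, and the median log2 ratio was 0.51, beside -0.16 over all genes. *Htra1* was 6.66-fold lower (exact p of 4.39e-04, edgeR adjusted p of 0.0145) and *Bmp1* 3.95-fold lower (exact p of 0.00872, edgeR adjusted p of 0.0723). *Fst* was 15.4-fold higher (exact p of 2.72e-05), with 198 tags in null AVC against 6 in the wild type, the listing limit. *Kcp*, another BMP-binding protein, was at 5.93 TPM in null AVC and 0 elsewhere. In the OFT 7 of 14 modulators with tags were called higher than in the chambers and 3 lower, where 40.6% and 8.88% of all genes were. With TMM 7 were called higher and 4 lower, where 26.2% and 17.7% of all genes were. Among the 3 was *Smoc1*, a matrix protein that can inhibit BMP signals, which was not listed in the OFT and was at 2.63 TPM in AVC, 3.21 in atria and 4.26 in ventricles.

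Of 10 further receptors and coreceptors, 7 had tags, and 3 were called higher in the AVC and 3 in OFT, where 43.4% and 40.6% of all genes were. None was called lower, where 8.12% and 8.88% of all genes were. With TMM 3 were called higher in each region, where 25.7% and 26.2% of all genes were. In the OFT 1 was then called lower, where 17.7% of all genes were. The median log2 ratios were 1.41 and 0.75, beside 1.23 and 1.07 over all genes. In none of the lists did a called gene change direction with TMM. *Eng*, an endothelial coreceptor, was at 43.5 TPM in AVC and 55.2 in OFT against 5.36 in atria and 2.13 in ventricles. *Acvr2b*, an activin type II receptor, was at 17.0, 14.8, 0 and 2.13 TPM in the same order. The remaining call of each region, *Rgma* in the AVC and *Acvrl1* in the OFT, set 8 tags against none in the chambers. In the null *Acvr2a* was called higher, where 11.9% of all genes were, at 32.1 TPM against 11.4 (2.82-fold, exact p of 0.0495, edgeR adjusted p of 0.202). Of 8 other BMP-type ligands, 3 had a tag in the AVC or chambers. *Gdf6* was at 4.61 TPM in AVC, 3.42 in OFT, 10.1 in atria, 15.6 in ventricles and 0.925 in null AVC. It was called lower in the null (exact p of 0.0140, edgeR adjusted p of 0.0992), where 12.7% of all genes were. It was also called lower in the OFT than in the chambers (exact p of 0.0235, edgeR adjusted p of 0.0563), where 8.88% of all genes were. The calls of *Bmp15*, with 7 tags in the AVC, and *Bmp8b*, with 8 in OFT, set a single tag type just past the listing limit against none.

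**Figure D4:**
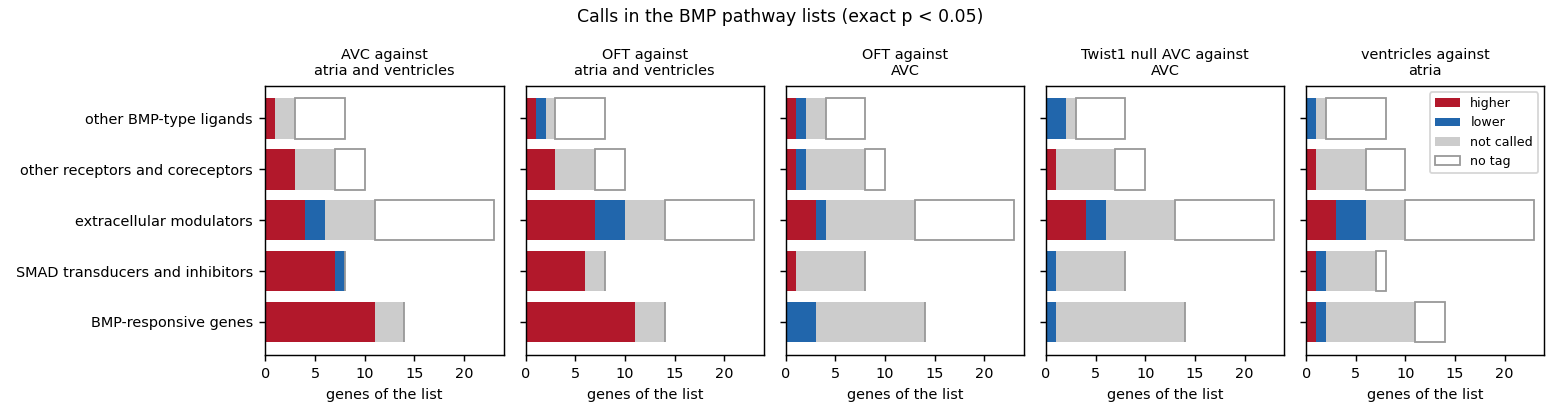
Number of genes (x axes) of each pathway list (y axis) called higher (red), called lower (blue), tested and not called (grey) or without a tag (white) in 5 comparisons of libraries (panels), at an exact p under 0.05. The BMP-responsive list has 11 of 14 genes called higher in both cushion regions against the chambers, where 43.4% and 40.6% of all genes were (9 and 7 genes with TMM), and 1 of 14 called lower in the null, where 12.7% of all genes were (0 with TMM).

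Genes whose levels over the 5 libraries ran most like those of a ligand or receptor were sought among 7013 genes, by the distance between profiles of log2(TPM + 1) centred on their means. The smallest distance to *Bmp2* was that of *Plekha6* (1.75), followed by *Msx1* (1.804) and *Ncam1* (1.83). *Bmp4* lay nearest to 5430431A17Rik (1.31), *Abra* (1.34) and *Prox1* (1.59), and *Bmp10* to *Ears2* (0.590), *Cep89* (0.859) and *Emp1* (0.879). The others had closer neighbours, with *Slc39a10* at 0.212 from *Bmp7*, *Slc16a3* at 0.261 from *Bmper*, *Daam1* at 0.40 from *Bmp5* and *Sbk1* at 0.421 from *Bmp6*. For the receptors these were *Tlk1* at 0.112 from *Bmpr1a*, *Tns3* at 0.113 from *Bmpr2* and *Nasp* at 0.12 from *Acvr1*. A profile has 5 points from libraries that differ in depth and globin share, and the distances are a description only.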

How the data were processed

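Tag-seq was performed by the authors on RNA of 5 pooled tissues, 1 library each. The deposited values are raw counts of tags per tag type, of which the authors kept those with more than 5 tags. The submitters' processing notes name mm9, and no mm9 position is used here. Python 3.11.15 with pandas 2.3.3 and scipy 1.17.1 took virtual tags of 17 bases at every CATG of 33363 RefSeq-linked GENCODE M21 transcripts (GRCm38). Tags that matched 1 gene in sense (70.7 to 74.6% of a library) were summed per gene. Libraries held 6075421 (AVC), 5267618 (OFT), 4666514 (atria), 4223810 (ventricles) and 12977237 tags (null), so 1 tag type was listed from 0.988, 1.14, 1.29, 1.42 and 0.462 TPM.

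The exact test of edgeR 4.0.16 (R 4.3.3) was fitted over all genes. The dispersion of 0.12 and the call at an unadjusted p under 0.05 follow the methods of the study. Deposited tags as library sizes were chosen here, with TMM as an alternative, and may differ from the scaling of the study. The exact test was also run on counts simulated with the same dispersion of 0.12 and known library sizes. That run cannot show whether this dispersion or scaling suits these libraries. Levels carry Poisson, and ratios and shares binomial, exact 95% intervals. In each comparison 17 or fewer alternatives were run. The genes and pathway lists were chosen with earlier results of these data known. Named are the 10 genes, with a selection of their tag types of at least 20 tags. The 2 genes of smallest p per list, direction and comparison were taken, and a selection of these is given. The 3 nearest profiles were taken from genes with at least 20 TPM in a library, and a selection of these is given too. Other files of the study were not analysed here.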

Additional observations from a re-analysis of the deposited data

Results flagged for a closer look

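*Bmp2* and *Bmp4* differed between the 2 cushion regions when these were set against the same chambers. The log2 ratio of OFT to AVC was -3.02 for *Bmp2* and 3.37 for *Bmp4*, each called by the exact test of that difference, in 1 library per region.

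Tags on the strand opposite to the transcript were left out of every level above. In all 35 antisense tag types were found for 9 of the 10 genes, *Bmp6* having none, and 22 of them stood at an NlaIII site that also gave a sense tag. Their highest summed levels per gene were 38.6 TPM for *Acvr1*, 38.2 for *Bmpr1a*, 26.7 for *Bmpr2*, 12.4 for *Bmp2* and 1.77 for *Bmp5*, all in the *Twist1* null library. In the OFT these were 18.8 TPM for *Bmp4*, 10.8 for *Bmper* and 7.40 for *Bmp7*, and for *Bmp10* the ventricles had 2.84. For *Acvr1*, 1 antisense tag type gave 189 tags in the OFT, next to 186 sense tags, and 501 in the null, next to 645.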

How the results depend on the processing

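Of 22 called differences, 10 kept their direction and call under every alternative that gave a value, and none changed direction. In 349 recomputations of these calls 22 were lost, to a dispersion of 0.4, to the adjustment over all genes, to the offset for tag bases (*Bmp4* in the null, *Bmp10* between chambers), to the atria alone (*Bmp10* in the AVC) or to 5 tags for a missing tag type. The number of genes called went from 6 to 3 for AVC against chambers with a dispersion of 0.4, and was 9 with 0.05 and 7 with the offset, where *Bmpr1a* was called lower. For the null it went from 2 to 4 with a dispersion of 0.05, to 0 with 0.4 or the adjustment (2 genes had an unadjusted p under 0.05 in edgeR's exact test) and to 1 with the offset. Between chambers it went from 6 to 3 with a dispersion of 0.4 or the adjustment, and to 2 with at least 50 tags per gene or 5 tags for a missing type. The share of all genes called under these settings is not given here. The counts therefore describe the 10 genes only and cannot be read against a background.

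Differences not called at first were called in 18 recomputations, 8 of them with a dispersion of 0.05. Outside those, and beside what is given above, *Bmpr1a* was called lower in the AVC with size factors (-1.60) and higher in the null with totals before the limit on tags (1.498), and *Bmp10* was called lower in the OFT than in the AVC with more than 10 tags per tag type or the 3′-most site (-1.58).

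Differences that turned direction, 25 recomputations in all, were not called before or after. With the 3′-most site only, log2 ratios became 0.76 (*Bmpr1a*, AVC against chambers), 1.60 (*Bmpr1a*, OFT against chambers), -0.14 and -0.64 (*Acvr1* and *Bmp5*, null) and -5.55 (*Bmpr1a*, ventricles against atria, 6 tags against none). With the offset for tag bases they became -0.052 and -0.096 (*Acvr1* and *Bmpr2*, AVC), -0.23 and -0.16 (the same, OFT), -0.40 and -0.13 (*Bmp6* and *Bmp7*, null), and -0.17, -0.13 and -0.34 (*Acvr1*, *Bmpr1a* and *Bmpr2*, ventricles against atria). For OFT against AVC, *Bmp6* became 0.23 and *Bmpr2* 0.029 with totals before the limit on tags, and *Bmp6* 0.12 after thinning. For ventricles against atria, *Acvr1* became -0.32 with TMM, -0.31 with size factors, -0.14 with totals before the limit, -0.28 without haemoglobin and -0.0047 after thinning, and *Bmpr2* -0.18, -0.17 and -0.14 with TMM, size factors and no haemoglobin. The cause was not tested.

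No paired analysis was possible because each group has 1 library. For the same reason leaving out a replicate was not done, and no test that estimates dispersion was run. *Bmpr2* has no tag of its own at the 3′-most site, and a few differences of low genes had no value under stricter limits on tags. Depth limits *Bmp6*, the chamber levels of *Bmp2*, *Bmp4* and *Bmp5*, and the ventricle level of *Bmper*. These rest on 34 tags or fewer in each wild-type library named.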
